A study of Mus musculus with 18 samples.

Results

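The clustered protocadherins are neuronal cadherin-like adhesion proteins encoded by 3 adjacent gene clusters, alpha, beta and gamma. They were taken here as the entries of the count table whose symbol is Pcdha, Pcdhac, Pcdhb, Pcdhga, Pcdhgb or Pcdhgc followed by a number. The rule found 58 of 54446 entries, with 57 distinct symbols because Pcdha11 is listed under 2 gene identifiers. By type they were 12 alpha, 2 alpha C (Pcdhac1 and Pcdhac2), 22 beta, 12 gamma A, 7 gamma B and 3 gamma C entries (Pcdhgc3, Pcdhgc4 and Pcdhgc5). The 58 were found in the GENCODE M21 annotation, on the plus strand of chromosome 18 between positions 36930184 and 37841873 of GRCm38 (mm10).

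RNA-seq counts were analysed for 18 libraries from 6 outbred CD-1 mice, electroporated in utero at E14.5 and killed at P7. The huFOXP2 group (2 mice) received human FOXP2 cDNA, the moFoxp2 group (1 mouse) mouse Foxp2 cDNA and the GFP group (3 mice) an empty plasmid, and a Gfp cDNA was electroporated in every group. FOXP2 is a forkhead transcription factor, and the 3 mice of the huFOXP2 and moFoxp2 groups are called FOXP2 mice below. From 300 µm sagittal slices of each mouse, neocortical layers 5-6 (L5-6), layer 4 (L4) and layers 2-3 (L2-3) were dissected separately and pooled within the mouse, giving 1 library per layer. The labels describe the electroporated, GFP-positive cells as lying in L4, and those of L5-6 and L2-3 as GFP-negative. Each library is bulk tissue that also holds cells without plasmid, so fewer expressing cells and less RNA per cell cannot be told apart. The moFoxp2 arm is 1 mouse, and no value for it has a replicate of its own.

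Each alpha and gamma protocadherin is known to be made from its own variable first exon, which has its own promoter and encodes the extracellular cadherin repeats, the transmembrane segment and part of the cytoplasmic tail. That exon is spliced to constant exons shared by the whole alpha or the whole gamma cluster, whereas each beta protocadherin is a single-exon gene. Individual neurons choose a few alternate isoforms in a largely stochastic way that depends on DNA methylation, CTCF and cohesin, while the C-type isoforms are used more widely. The proteins bind the same isoforms on facing membranes, and this recognition serves self-avoidance of neurites, axon tiling and neuronal survival.

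Depth was 10111149 to 23404528 counted reads per library, of which 5207 to 17200 fell on the protocadherins. Foxp2 itself was counted in L4 at 33.3 and 64.9 CPM in huFOXP2 mice and 34.8 CPM in the moFoxp2 mouse, against 5.38 to 8.74 CPM in GFP mice, where CPM is the usual depth-scaled count, taken over the TMM-scaled library total. In L2-3 it was at 20.2 and 52.3 CPM in huFOXP2 mice and 21.2 CPM in the moFoxp2 mouse, against 1.77 to 6.53 CPM in GFP mice. In L5-6, where Foxp2 is a marker of corticothalamic neurons, the groups overlapped, with 39.6 to 77.7 CPM in FOXP2 mice, against 52.4 to 68.6 CPM in GFP mice. The layer labels were checked against marker lists. Summed layer 5 and 6 markers were at 723 to 1268 CPM in L5-6, 268 to 407 CPM in L4 and 159 to 262 CPM in L2-3. Of the 12 genes in that list 11 were found, and Foxp2, the electroporated gene, is among them. In huFOXP2 mouse 2, Foxp2 gave 64.9 of 276 CPM in L4 and 52.3 of 207 CPM in L2-3. Summed layer 2-3 markers were at 581 to 914 CPM in L5-6, 1294 to 1547 CPM in L4 and 1149 to 1481 CPM in L2-3, so these did not separate L4 from L2-3. Summed layer 4 markers were at 253 to 759 CPM in L5-6, 795 to 1241 CPM in L4 and 419 to 912 CPM in L2-3, so L4 and L2-3 overlapped here too, with GFP mouse 1 at 991 CPM in L4 and 912 CPM in L2-3. Meningeal fibroblast markers were at 321 to 1724 CPM in L2-3 but at 74.8 CPM or less in L4 and L5-6.

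The overlapping exons bear on what a count means here. All 36 alpha and gamma entries shared annotated exonic bases with another gene, while 3 of the 22 beta entries did. Over the whole table, 1213 of 1223 genes (99.2%) with no exonic base of their own on either strand had 0 reads in the 18 libraries, against 10309 of 37535 genes (27.5%) with 500 or more bases of their own. Of 148 genes with no base of their own on either strand but 500 or more when the other strand is left aside, 147 (99.3%) had 0 reads. Genes without bases of their own thus received almost no counts, whichever strand the second gene lay on. An alpha or gamma count is therefore read below as a count over the bases that no other gene covers, which lie mainly in the variable first exon, and not over the constant exons; the 4 annotated transcripts that link several members to constant exons (Gm42416, Gm37013, Gm37388 and Gm38182) had no bases of their own and no reads. Pcdhgc5 is a special case, since its annotated first exon block of 5567 bases runs into bases shared with every other gamma gene. Its 4606 own bases may thus include sequence before the constant exons, where unspliced RNA of other gamma isoforms could be counted too. Close sequence likeness between neighbouring members is a further limit, since how reads that align in more than 1 place were handled is not given in the sources used here.

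Of the 58 entries, 5 had counts too low to be compared between layers. Pcdhga10 had 0 reads in the 18 libraries, and its 2613-base first exon lies wholly under the antisense transcript Gm26672, so it has 0 bases of its own. Pcdha4 had 13 reads in all and 404 bases of its own. The second identifier of Pcdha11, starting at position 37010712, had 3 reads over 1268 bases of its own. Wherever values of Pcdha11 are given below, they are those of the first identifier, which had 3588 reads. It starts at position 37005203, between Pcdha9 and the second identifier. No entry is named Pcdha10, so which isoform the first identifier stands for cannot be told from its symbol. Pcdhb1, a single-exon gene with 2588 bases of its own, had 15 reads in all. Pcdhgb8, annotated as a polymorphic pseudogene, had 113 reads and reached at most 0.612 CPM. For Pcdhb1 and Pcdhgb8, therefore, low counts were not accompanied by a lack of countable bases, while for Pcdhga10 the count says nothing about expression.

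The 58 entries together took 505 to 825 CPM. By layer, the sum averaged 614 ± 57.6 CPM in L5-6, 727 ± 112 CPM in L4 and 677 ± 106 CPM in L2-3 (SD, n = 6 mice), ranges that overlap. The beta genes held 160 ± 16.4 CPM in L5-6, 205 ± 29.9 CPM in L4 and 197 ± 30.7 CPM in L2-3. The alternate alpha genes held 91.9 ± 19.1 CPM in L5-6, 117 ± 26.8 CPM in L4 and 90.6 ± 23 CPM in L2-3. The 3 gamma C genes held 134 ± 6.36 CPM in L5-6, 135 ± 17.2 CPM in L4 and 144 ± 18.2 CPM in L2-3. The 12 gamma A genes held 114 ± 10.9, 134 ± 19.4 and 128 ± 17.2 CPM in L5-6, L4 and L2-3.

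Levels of different members are compared per kilobase of the bases that are each member's own. C-type isoforms led this order. Pcdhgc3, a gamma C-type isoform used by neurons and by glia, averaged 40.2 CPM per kb over the 18 libraries. Pcdhac2, the C-type isoform of the alpha cluster used by serotonergic axons for tiling, averaged 21.6 CPM per kb. Pcdhgc4, the isoform on which survival of cortical interneurons depends in mice, averaged 13.8 CPM per kb. The remaining C-types were lower, Pcdhgc5 at 3.56 and Pcdhac1 at 1.93 CPM per kb, within the range of the alternate isoforms. Taken per whole exonic length, which counts the shared exons as if they could be read, Pcdhgc3 came to 13.3, Pcdhac2 to 11.1 and Pcdhgc4 to 8.56 CPM per kb, so the distance between Pcdhgc3 and Pcdhac2 depends on which length is used.

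**Figure D1:**
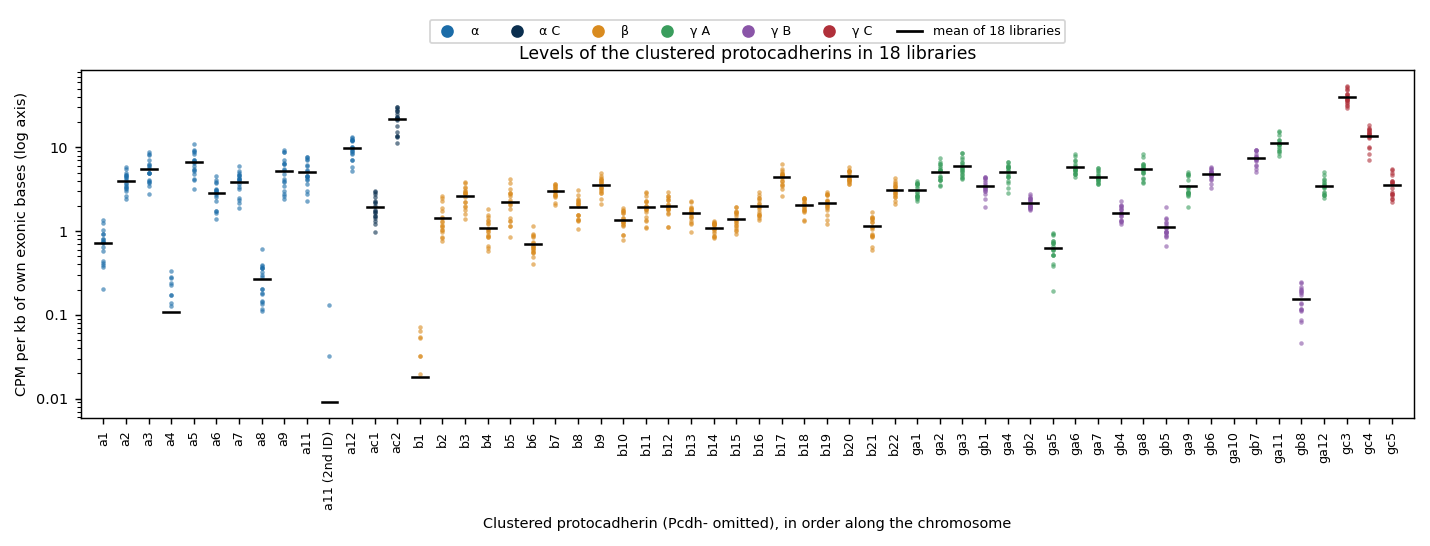
CPM per kilobase of each member's own exonic bases (log axis) for 58 entries in order along chromosome 18; each point is 1 library, bars are means over 18 libraries, libraries at 0 are not drawn and Pcdhga10 has no own bases. Pcdhgc3 (40.2), Pcdhac2 (21.6) and Pcdhgc4 (13.8 CPM per kb) stand highest.

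Among alternate isoforms the level varied from gene to gene along each cluster. Counts not scaled for length gave the 3 highest and the 2 lowest members of each type, and each is given here with its level per own kilobase. In the alpha cluster Pcdha12, Pcdha5 and Pcdha3 had the most counts (18.9, 15.5 and 13.5 CPM), which is 9.71, 6.61 and 5.46 CPM per own kb. Among the alpha genes with a read in every library, Pcdha8 and Pcdha1 had the fewest, at 0.268 and 0.729 CPM per own kb. Pcdha8 has 2478 bases of its own, more than the 1944 of Pcdha12, so the low count of Pcdha8 did not go with fewer countable bases.

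In the beta cluster Pcdhb17, Pcdhb22 and Pcdhb20 had the most counts (20.4, 19.2 and 16.1 CPM), which is 4.38, 3.12 and 4.51 CPM per own kb. Pcdhb12 and Pcdhb6 had the fewest among beta genes with a read in every library (2.23 and 2.61 CPM). Only 1107 of the 3034 exonic bases of Pcdhb12 are its own, and per own kb it stood at 2.01 CPM, above Pcdhb6 at 0.696 CPM. In the gamma A group Pcdhga3, Pcdhga6 and Pcdhga12 had the most counts (15.4, 15.3 and 14.3 CPM), which is 5.94, 5.83 and 3.48 CPM per own kb, and Pcdhga5 and Pcdhga4 the fewest after Pcdhga10, at 0.636 and 5.06 CPM per own kb. In the gamma B group Pcdhgb7, Pcdhgb6 and Pcdhgb1 stood at 7.50, 4.77 and 3.45 CPM per own kb, and Pcdhgb5 and Pcdhgb8, with the fewest counts, at 1.11 and 0.156 CPM per own kb. Pcdhga11, with 1256 of 4756 bases its own, was at 11.2 CPM per own kb, above every other alternate isoform, but at 2.95 CPM per kb of whole length.

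Between layers, 4 beta genes near the start of the beta cluster (Pcdhb2 to Pcdhb5) were lower in L5-6, and the C-types Pcdhgc5 and Pcdhgc3 differed in opposite directions. Of the 10 alternate alpha genes tested, 5 were higher in L4 than in L2-3 and 3 were lower in L5-6 than in L4. Each layer contrast was fitted over the 6 mice with the mouse as a block, and 53 of the 58 entries passed the filter on low counts. In L5-6 against L2-3, 15 members passed an adjusted p of 0.05 in edgeR's quasi-likelihood test with Benjamini-Hochberg adjustment over all genes, 1 higher and 14 lower in L5-6. That is 28.3% of the members tested, against 37.9% of all 15295 genes tested. Of all genes, 20% were called higher and 17.9% lower in L5-6. In L5-6 against L4, 22 members passed (41.5%, against 35.1% of all genes), 1 higher and 21 lower, beside 19.5% of all genes higher and 15.6% lower. In L4 against L2-3, 11 members passed (20.8%, against 36.5% of all genes), 9 higher and 2 lower in L4, beside 17.7% of all genes higher and 18.8% lower. Median log2 differences of the members were -0.16, -0.27 and 0.11 in these 3 contrasts, beside 0.02, 0.01 and 0.04 over all genes. Across the contrasts, 30 members passed at least once and 11 were lower in L5-6 than in both other layers. The matching shares over all genes were not taken, so these counts are not read as a trait of the members.

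Pcdhb5, a single-exon beta protocadherin, had the largest layer difference of the 53 members. Its lowest, median and highest values were 3.02, 4.41 and 5.03 CPM in L5-6, 6.44, 8.09 and 11.3 CPM in L4, and 7.48, 10.2 and 14.8 CPM in L2-3. The L5-6 libraries lay below every L4 and every L2-3 library, whereas L4 and L2-3 overlapped. The log2 difference was -1.32 ± 0.13 for L5-6 against L2-3 (SE, adjusted p = 2.74e-06, lower in 6 of 6 mice), -0.98 ± 0.13 for L5-6 against L4 (adjusted p = 0.000137, lower in 6 of 6) and -0.34 ± 0.13 for L4 against L2-3 (adjusted p = 0.0477, lower in 5 of 6). The last call was lost without GFP mouse 2 or 3 or without either huFOXP2 mouse, with adjusted p between 0.0897 and 0.204.

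Its neighbours Pcdhb2, Pcdhb3 and Pcdhb4, also beta genes, were lower in L5-6 too. Pcdhb3 was at 5.34, 7.02 and 8.53 CPM in L5-6 (lowest, median, highest), 9.66, 11.4 and 12.8 CPM in L4, and 8.55, 10.8 and 14.8 CPM in L2-3. The L5-6 values of Pcdhb3 did not overlap those of either other layer, and its log2 difference was -0.73 ± 0.11 against L2-3 (adjusted p = 0.000131) and -0.72 ± 0.11 against L4 (adjusted p = 0.00038), in 6 of 6 mice for each. Pcdhb2 was at 2.17, 2.66 and 3.37 CPM in L5-6, 2.73, 4.35 and 6.51 CPM in L4, and 3.20, 4.08 and 7.32 CPM in L2-3, with log2 differences of -0.78 ± 0.15 against L2-3 and -0.64 ± 0.15 against L4 (adjusted p = 0.000805 and 0.0059). Pcdhb4 had a log2 difference of -0.53 ± 0.18 against L2-3 (adjusted p = 0.029) and -0.51 ± 0.18 against L4 (adjusted p = 0.0439), but its calls did not hold when single mice were left out. Without GFP mouse 2, GFP mouse 3 or huFOXP2 mouse 1 the adjusted p of Pcdhb4 against L2-3 was 0.0679 to 0.1, and against L4 it was 0.062 to 0.157 without any 1 mouse other than GFP mouse 1.

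These 4 genes are set beside the later beta genes as a description, the split having been made after their values were seen. Pcdhb1, the first gene of the cluster, was not tested. With 15 reads in all, it was higher in L5-6 than in L2-3 in 5 mice and lower in 0. For Pcdhb2 to Pcdhb5 the median log2 difference of L5-6 against L2-3 was -0.76, with 4 of 4 called lower, and for the 17 genes from Pcdhb6 to Pcdhb22 it was -0.18, with 5 of 17 called lower. There was no steady decline along the cluster, since Pcdhb5 differed more than Pcdhb2 and Pcdhb4, and the next gene, Pcdhb6, was at -0.14 ± 0.15 and lower in 3 of 6 mice. The Spearman coefficient of the log2 difference with gene order was 0.614 over the 21 tested beta genes and 0.287 over the 17 without Pcdhb2 to Pcdhb5, a description over genes that share the same libraries. Later beta genes called lower in L5-6 than in L2-3 were Pcdhb9 (-0.49 ± 0.09), Pcdhb17 (-0.47 ± 0.10), Pcdhb15 (-0.41 ± 0.13), Pcdhb10 (-0.35 ± 0.13) and Pcdhb20 (-0.21 ± 0.07 on the log2 scale). Against L4, 12 of 21 beta genes were called lower in L5-6 and the estimates of all 21 tested were below 0, from -0.98 for Pcdhb5 to -0.02 for Pcdhb18. Glial markers also differed between these layers. Of the oligodendrocyte lineage markers 10 of 10 were called higher in L5-6 than in L4 and 8 of 10 higher than in L2-3 (median log2 differences of 1.71 and 1.43). Astrocyte markers were called higher in L5-6 than in L4 in 5 of 8 and microglia markers in 5 of 6. The part of these cells in the lower beta counts was not tested.

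**Figure D2:**
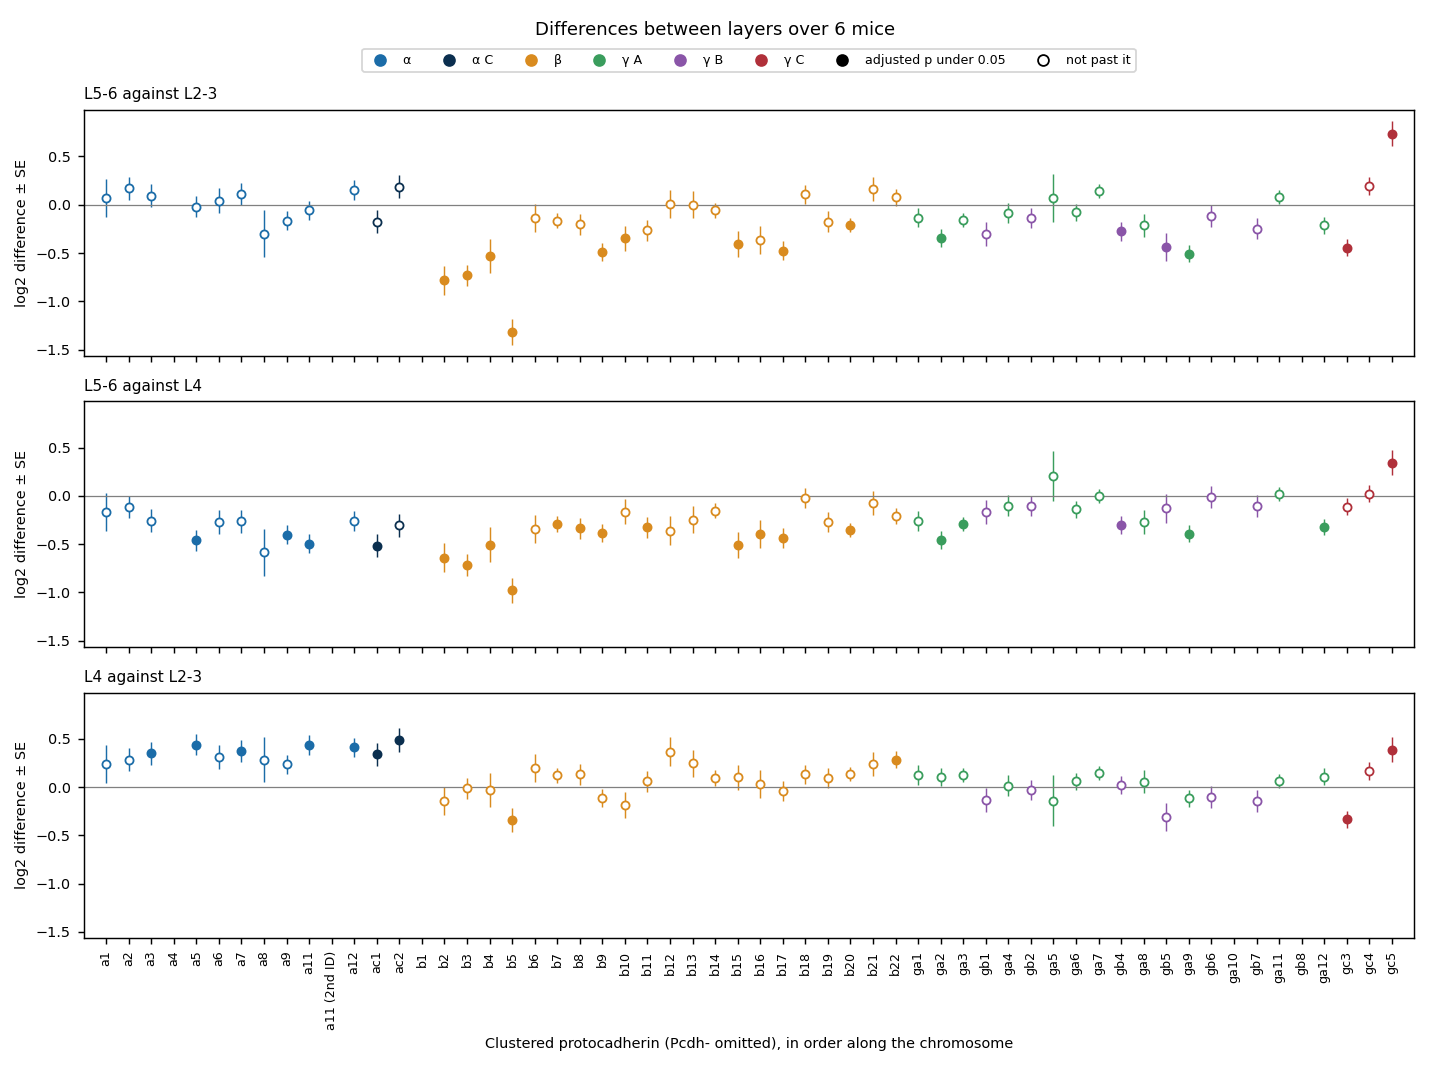
Log2 differences between layers with standard errors for the 53 tested members in order along the chromosome, from fits over 6 mice with the mouse as a block; filled points passed an adjusted p of 0.05. Pcdhb2 to Pcdhb5 lie lowest in L5-6 against L2-3, and Pcdhgc5 is the 1 member called higher in L5-6.

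The C-type isoforms went in different directions. Pcdhgc5, the last gene of the gamma cluster and known for late onset in postnatal cortex, was at 17.1, 19.8 and 24.9 CPM in L5-6 (lowest, median, highest), 10.3, 16.2 and 25.1 CPM in L4, and 11.1, 12.5 and 13.7 CPM in L2-3. Each L5-6 library lay above each L2-3 library, and the log2 difference was 0.73 ± 0.13 (adjusted p = 0.00042, higher in 6 of 6 mice). Own bases of Pcdhgc5 may include sequence before the constant exons, as given above, so reads from other gamma isoforms cannot be set apart here. Pcdhgc5 was also called higher in L5-6 than in L4 (0.35 ± 0.13, adjusted p = 0.048) and in L4 than in L2-3 (0.39 ± 0.13, adjusted p = 0.0316). Both of those calls were lost in most fits without 1 mouse. The adjusted p of Pcdhgc5 in L5-6 against L4 was 0.0576 to 0.156 without any 1 mouse other than huFOXP2 mouse 1, and in L4 against L2-3 it was 0.0606 to 0.156 without GFP mouse 2 or 3 or either huFOXP2 mouse.

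Pcdhgc3 ran the other way. It was at 53.8, 59.8 and 79.5 CPM in L5-6, 63.9, 67.1 and 78.5 CPM in L4, and 72.8, 89.2 and 98.4 CPM in L2-3. Its log2 difference was -0.44 ± 0.09 for L5-6 against L2-3 (adjusted p = 0.00138, lower in 5 of 6 mice) and -0.33 ± 0.09 for L4 against L2-3 (adjusted p = 0.0107, lower in 6 of 6 mice). GFP mouse 1 was the exception, with 79.5 CPM of Pcdhgc3 in L5-6 and 72.8 CPM in L2-3, and without the moFoxp2 mouse the call of L4 against L2-3 had an adjusted p of 0.0531. L2-3 was also the layer with meningeal markers, and astrocyte markers there were at 3008 to 5105 CPM, against 2192 to 3097 CPM in L4 and 2853 to 5291 CPM in L5-6. Oligodendrocyte lineage markers were at 1409 to 4535 CPM in L5-6 and at 687 to 1112 CPM in L2-3. Their part in the difference of Pcdhgc3 was not tested.

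Pcdhac2 was at 34.5, 68.6 and 70.1 CPM in L5-6, 41.7, 84.4 and 91.1 CPM in L4, and 40.6, 50.3 and 82.6 CPM in L2-3. It was higher in L4 than in L2-3 by 0.49 ± 0.12 on the log2 scale (adjusted p = 0.00673, higher in 5 of 6 mice). Pcdhac1, the first C-type of the alpha cluster, was higher in L4 than in L2-3 (0.34 ± 0.12, adjusted p = 0.0339) and lower in L5-6 than in L4 (-0.52 ± 0.12, adjusted p = 0.00453, lower in 6 of 6 mice). The first of these calls of Pcdhac1 was lost without any 1 mouse other than GFP mouse 3, with adjusted p of 0.0514 to 0.125. Pcdhgc4 passed in none of the contrasts, at 47.7 CPM in L5-6, 51.2 CPM in L4 and 49.8 CPM in L2-3 (medians).

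Alternate alpha isoforms were next compared between L4 and its neighbours. Of the 10 tested, 5 were called higher in L4 than in L2-3, none lower, and the 10 estimates lay between 0.24 and 0.44. When the FOXP2 difference was compared between layers, L4 minus L2-3, all 10 estimates were above 0 (median 0.40), with none called. With GFP mice alone, no member of any type was called in L4 against L2-3, beside 952 of 15698 genes. Pcdha11 was at 5.78, 10.9 and 15.3 CPM in L5-6, 7.52, 16.7 and 19.4 CPM in L4, and 6.85, 11.2 and 17.5 CPM in L2-3, ranges that overlap because the mice differ, but within each of the 6 mice L4 was the highest layer. Its log2 difference was 0.44 ± 0.10 for L4 against L2-3 (adjusted p = 0.0041) and -0.50 ± 0.10 for L5-6 against L4 (adjusted p = 0.00219). Pcdha5 (0.44 ± 0.11), Pcdha12 (0.41 ± 0.10), Pcdha7 (0.37 ± 0.12) and Pcdha3 (0.35 ± 0.12) were the other alpha genes called higher in L4 than in L2-3. The calls of Pcdha7 and Pcdha3 were lost without GFP mouse 2, the moFoxp2 mouse or huFOXP2 mouse 1, and that of Pcdha3 also without huFOXP2 mouse 2 (adjusted p of 0.0675 to 0.133). Against L4, the 3 alpha genes called lower in L5-6 were Pcdha11, Pcdha5 (-0.46 ± 0.11) and Pcdha9 (-0.40 ± 0.10), so Pcdha11 and Pcdha5 passed in both contrasts. Pcdhb22, the last beta gene, was also higher in L4 than in L2-3 (0.29 ± 0.09, adjusted p = 0.0202), a call lost without GFP mouse 2, the moFoxp2 mouse or huFOXP2 mouse 2 (adjusted p of 0.0518 to 0.1). Summed pan-neuronal markers were at 9133 to 11010 CPM in L4 and 7356 to 9138 CPM in L2-3, and their part in the higher alpha counts was not tested.

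Of the gamma A and gamma B genes none was called between L4 and L2-3. In L5-6 against L2-3, Pcdhga9 (-0.51 ± 0.09, adjusted p = 0.000392), Pcdhgb5 (-0.43 ± 0.15, adjusted p = 0.0292), Pcdhga2 (-0.35 ± 0.09) and Pcdhgb4 (-0.28 ± 0.10 on the log2 scale) were lower in L5-6. Pcdhga9 was at 6.81, 9.73 and 11.8 CPM in L5-6, 9.66, 11.95 and 16.6 CPM in L4, and 10.03, 13.8 and 17.6 CPM in L2-3. Against L4, Pcdhga2 was lower in L5-6 with a log2 difference of -0.45 ± 0.09 (adjusted p = 0.00224). The call of Pcdhgb5 was lost without GFP mouse 2 or 3 or either huFOXP2 mouse (adjusted p of 0.0616 to 0.14), and that of Pcdhb15 against L2-3 without GFP mouse 3 or either huFOXP2 mouse (0.0521 to 0.126).

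**Figure D3:**
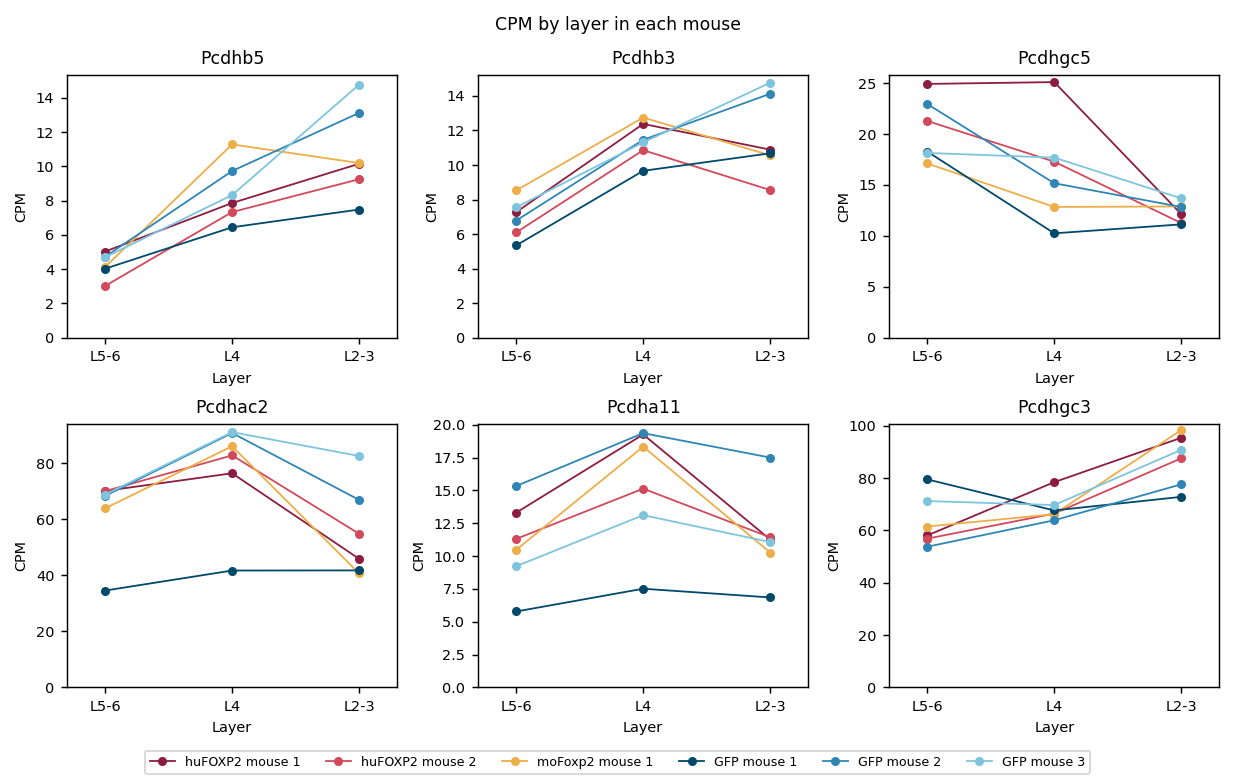
CPM of 6 members in L5-6, L4 and L2-3; each line joins the 3 libraries of 1 mouse. Pcdhb5 and Pcdhb3 were lowest in L5-6 in each of the 6 mice, Pcdhgc5 was higher in L5-6 than in L2-3 in each, and Pcdha11 was highest in L4 in each.

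Fitted in each arm alone, the called members kept their direction. All 15 of L5-6 against L2-3, all 22 of L5-6 against L4 and all 11 of L4 against L2-3 had the same sign in FOXP2 mice alone and in GFP mice alone. They were called on these same 6 mice, so this agreement follows largely from how they were picked and is no separate support. With FOXP2 mice alone 13, 12 and 12 members were called in these contrasts, and with GFP mice alone 10, 10 and 0. Over all genes the calls also differed between the arms. They numbered 6378, 3105 and 6617 of 15396 genes in FOXP2 mice alone, and 3566, 3563 and 952 of 15698 in GFP mice alone. In L4 against L2-3 the median log2 difference of the members was 0.19 in FOXP2 mice, with 40 of 53 above 0, and 0.02 in GFP mice, with 28 of 53 above 0, from 3 mice each. Over all genes the medians were 0.00 in FOXP2 mice and 0.02 in GFP mice. Single mice also moved the counts. In L4 against L2-3 the count of members fell to 5 when GFP mouse 2 was left out. It was 6 without the moFoxp2 mouse or huFOXP2 mouse 1, and 7 without huFOXP2 mouse 2. Over all genes the calls in these 4 fits were 4222 of 15305, 3590 of 15431, 4084 of 15323 and 3769 of 15296. In L5-6 against L2-3 the count of members was 9 without GFP mouse 3, 10 without GFP mouse 2 or huFOXP2 mouse 1, and 22 without GFP mouse 1. Over all genes the calls there were 4797 of 15310, 4796 of 15305, 4921 of 15323 and 6833 of 15305.

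Between FOXP2 and GFP mice, no protocadherin passed the threshold in any layer. The comparison asked which genes differ when FOXP2 is expressed in the electroporated neurons. In L5-6, 0 of 52 members tested were called, beside 0.0196% of all genes, and 0 members had an unadjusted p under 0.05. In L4, 0 of 53 were called, beside 0.0275% of all genes, and 2 had an unadjusted p under 0.05. In L2-3, 0 of 53 were called, beside 0.0722% of all genes, and 1 had an unadjusted p under 0.05. Over all genes, an unadjusted p under 0.05 in edgeR's test held for 946 of 15330 in L5-6, 457 of 14544 in L4 and 2412 of 15241 in L2-3. DESeq2 also called 0 members in each layer, beside 56, 32 and 755 of all genes in L5-6, L4 and L2-3. At an unadjusted p under 0.05 DESeq2 had 0, 3 and 1 members, beside 1039, 409 and 2299 of all genes. With 3 mice in each arm, the median standard error of a member was 0.22 to 0.23 on the log2 scale, and the largest was 0.57, in L4. A standard error is not a limit, so differences well above it in either direction remain possible.

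The members with the smallest unadjusted p differed between layers, except that Pcdhb17 and Pcdhga2 stood among them in both L4 and L5-6. In L4, Pcdhga2, a gamma A isoform, was at 15.4 and 19.2 CPM in huFOXP2 mice and 17.1 CPM in the moFoxp2 mouse, against 10.5, 13.8 and 13.8 CPM in GFP mice. The groups did not overlap, and the log2 difference was 0.43 ± 0.16 (unadjusted p = 0.0225, adjusted p = 1.0). Pcdhb17 in L4 was at 22.96 and 22.7 CPM in huFOXP2 mice and 29.5 CPM in the moFoxp2 mouse, against 18.3, 22.1 and 18.3 CPM in GFP mice, a log2 difference of 0.36 ± 0.15 (adjusted p = 1.0). Pcdhb8 had a log2 difference of 0.56 ± 0.25 in L4 (adjusted p = 1.0). In L2-3, Pcdhb22 was at 14.0 and 16.7 CPM in huFOXP2 mice and 15.7 CPM in the moFoxp2 mouse, against 15.8, 21.5 and 22.3 CPM in GFP mice, a log2 difference of -0.37 ± 0.16 (adjusted p = 0.311). Pcdhb3 (-0.40 ± 0.18, adjusted p = 0.32) and Pcdhb11 (-0.47 ± 0.23, adjusted p = 0.364) followed in L2-3. In L5-6 they were Pcdhb17 (0.34 ± 0.15), Pcdhga11 (-0.31 ± 0.17) and Pcdhga2 (0.27 ± 0.17 on the log2 scale), each with an adjusted p of 0.713.

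**Figure D4:**
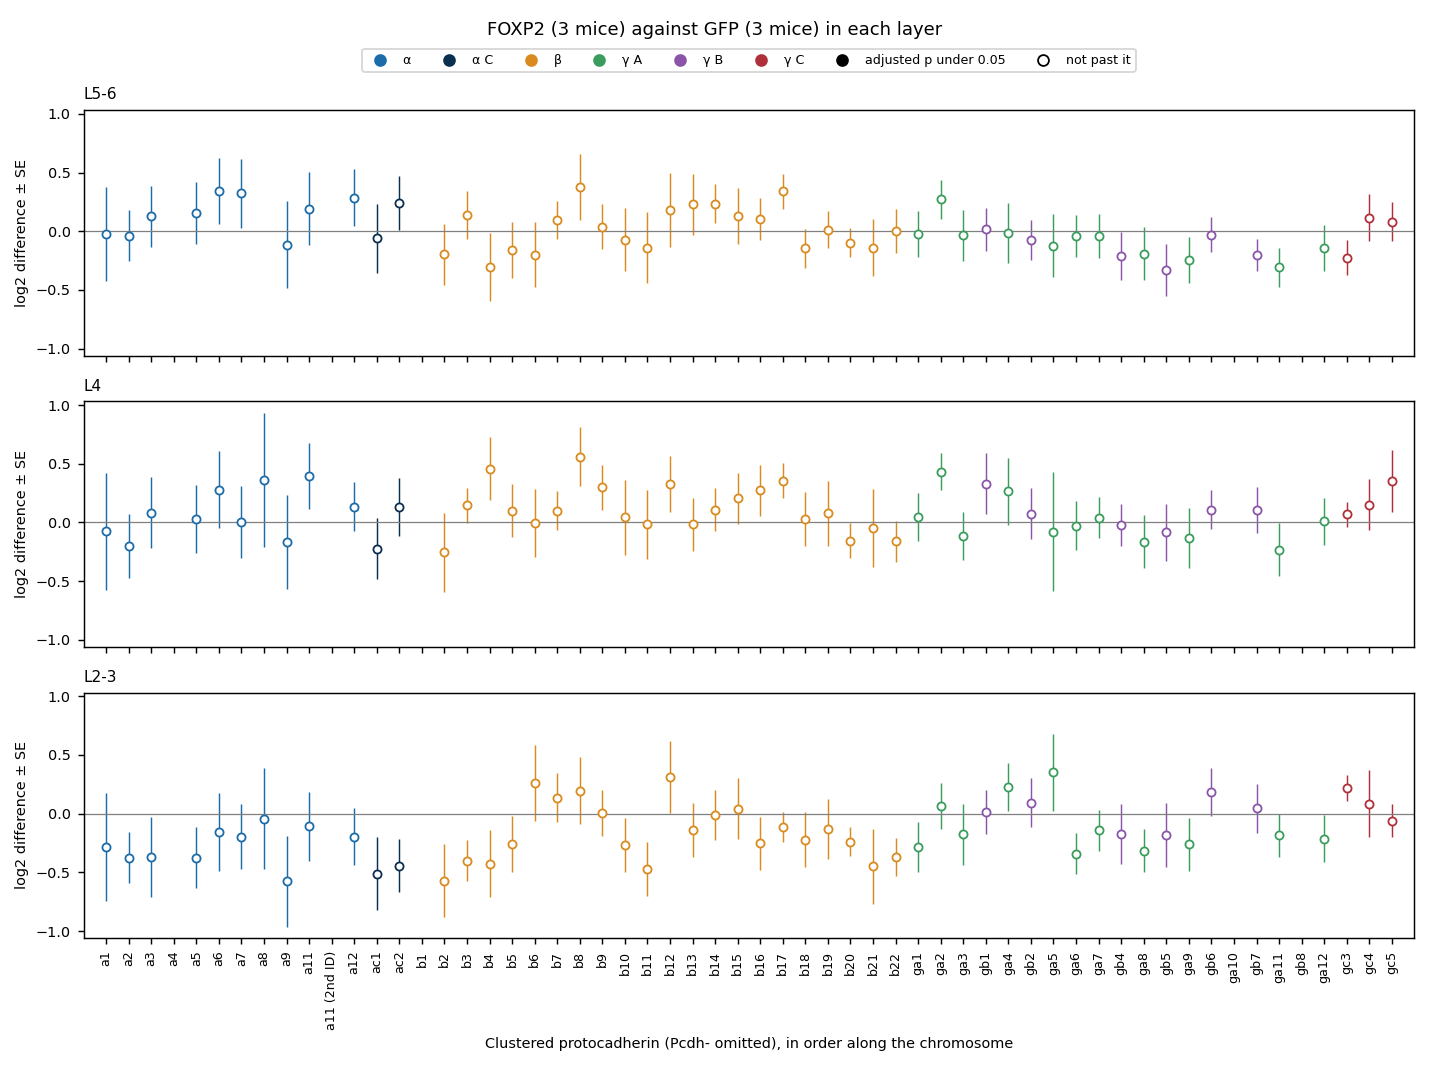
Log2 differences of FOXP2 against GFP mice (n = 3 each) with standard errors in L5-6, L4 and L2-3 for the members tested in each layer. No point is filled, since none passed an adjusted p of 0.05, and in L2-3 more points lie below 0 (38) than above (15).

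In L2-3 the estimates leaned one way, without any member passing. The median log2 difference of the members was -0.18 in L2-3, beside -0.01 over all genes, and it was 0.07 in L4 and -0.03 in L5-6. The lean depended on single mice. Without GFP mouse 1 the median was -0.36, with 0 members called. In that fit 18 members had an unadjusted p under 0.05 in edgeR's test, beside 3659 of 15460 genes. The median was -0.08 without GFP mouse 2, -0.07 without GFP mouse 3 and -0.11 without the moFoxp2 mouse. With the replicate block over huFOXP2 and GFP mice 1 and 2 it was 0.03, and for the same mice without the block it was -0.03. In the fit of all 6 mice the 10 tested alpha genes and both alpha C genes had estimates below 0 in L2-3. Summed alpha C counts came to 51.0 ± 7.72 CPM in the FOXP2 arm and 69.3 ± 22.7 CPM in the GFP arm of L2-3. In L4 they came to 87.2 ± 4.57 CPM in the FOXP2 arm and 80.9 ± 30.6 CPM in the GFP arm (SD, n = 3 each), so the spread within the GFP arm exceeded the difference in both layers. The L2-3 libraries of the arms also differed in makeup. All 8 meningeal fibroblast markers were found, and their sum was 1203 to 1724 CPM in the FOXP2 arm, against 321 to 998 CPM in the GFP arm. The summed 8 pan-neuronal markers were at 7356 to 8099 CPM in the FOXP2 arm, against 8287 to 9138 CPM in the GFP arm of that layer. Layer 4 markers there were at 419 to 495 CPM in the FOXP2 arm, against 631 to 912 CPM in the GFP arm. Interneuron markers were at 847 to 959 CPM in the FOXP2 arm, against 448 to 672 CPM in the GFP arm. Endothelial markers were at 802 to 1150 CPM in the FOXP2 arm, against 544 to 671 CPM in the GFP arm, so that none of these 5 lists overlapped between the arms. Astrocyte, oligodendrocyte lineage, microglia and layer 5 and 6 markers did overlap, the last list holding Foxp2 itself. Also apart were layer 2-3 markers, at 1149 to 1186 CPM in the FOXP2 arm, against 1408 to 1481 CPM in the GFP arm. The sparse choroid plexus and ependyma markers were at 8.99 to 22.1 CPM in the FOXP2 arm, against 4.97 to 7.19 CPM in the GFP arm. The part of these differences in the protocadherin estimates was not tested.

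With the 3 layers of each mouse added together, 0 of 54 members were called between FOXP2 and GFP mice, beside 0.0172% of all genes. No member had an unadjusted p under 0.05, beside 715 of 17462 genes with edgeR's quasi-likelihood test and 738 with DESeq2. DESeq2 called 0 members there, beside 62 of all genes. The smallest p belonged to Pcdhga2 (0.27 ± 0.15), Pcdhb17 (0.18 ± 0.11) and Pcdhb20 (-0.16 ± 0.11 on the log2 scale). By construct, 0 of 54 were called in huFOXP2 against GFP mice (0.0159% of all genes), in moFoxp2 against GFP (0.0106%) and in huFOXP2 against moFoxp2 (0% of all genes), and DESeq2 also called none. At an unadjusted p under 0.05 there were 0, 1 and 1 members in these comparisons with edgeR and 1 in each with DESeq2. The lone moFoxp2 mouse is assumed there to vary like the mice of the other groups.

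The 1 member behind the last 2 edgeR counts was Pcdha1, the first isoform of the alpha cluster. Pcdha1 was at 2.58 and 1.80 CPM in huFOXP2 mice, 0.825 CPM in the moFoxp2 mouse and 1.17, 2.504 and 2.01 CPM in GFP mice, as means of the 3 layers of each mouse. The log2 difference was -1.19 ± 0.49 for moFoxp2 against GFP and 1.36 ± 0.51 for huFOXP2 against moFoxp2 (unadjusted p = 0.0461 and 0.0323, adjusted p = 1.0 in both). In huFOXP2 against GFP the smallest p was that of Pcdhb8 (0.57 ± 0.24, adjusted p = 1.0), which was at 9.26 and 7.90 CPM in huFOXP2 mice and 4.87, 7.70 and 4.92 CPM in GFP mice.

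The FOXP2 difference itself was then compared between layers. For L5-6 minus L2-3 it differed for 3 of 53 members (5.66%, against 15.4% of all genes), each with a more positive difference in L5-6, beside 6.75% of all genes in that direction and 8.66% in the other. They were Pcdhac2 (0.71 ± 0.14, adjusted p = 0.0112), Pcdhb3 (0.54 ± 0.15, adjusted p = 0.0309) and Pcdha5 (0.54 ± 0.16, adjusted p = 0.0394). Pcdhac2 in L5-6 was at 70.1 and 70.0 CPM in huFOXP2 mice and 63.9 CPM in the moFoxp2 mouse, against 34.5, 68.3 and 68.8 CPM in GFP mice. In L2-3 Pcdhac2 was at 45.8 and 54.8 CPM in huFOXP2 mice and 40.6 CPM in the moFoxp2 mouse, against 41.7, 66.9 and 82.6 CPM in GFP mice. The L2-3 libraries of FOXP2 mice are thus at the low end of the GFP range, whereas in L5-6 GFP mouse 1 stands alone below the others. The count was 1 without GFP mouse 1 or GFP mouse 3, 2 without the moFoxp2 mouse or huFOXP2 mouse 2, 5 without GFP mouse 2 and 0 without huFOXP2 mouse 1, when the adjusted p of Pcdhac2 was 0.0697. With no block for the mouse it was 0, and the adjusted p of Pcdhac2 was 0.365. The count over all genes moved too. It was 2457 of 15952 in the main fit, 1 of 16176 without huFOXP2 mouse 1 and 0 of 15952 with no block. Without GFP mouse 2 it was 3414 of 16202, and without GFP mouse 1 or GFP mouse 3 it was 1385 of 16097 and 1001 of 16215. Without the moFoxp2 mouse or huFOXP2 mouse 2 it was 1129 of 16337 and 1402 of 16175. Pcdhb3 lost its call without any 1 of the 6 mice, and Pcdha5 without any other than huFOXP2 mouse 2. For L4 minus L2-3 and L5-6 minus L4, 0 of 53 members were called (0% and 0.00627% of all genes). At an unadjusted p under 0.05 in edgeR's test there were 10 and 1 members, beside 2831 and 892 of 15952 genes. DESeq2 was not run there. For L4 minus L2-3, 46 of 53 estimates were above 0, with a median of 0.25 beside -0.01 over all genes.

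Many protocadherins differed between individual GFP mice. Among the 3 GFP mice, 28 of 53 members differed between mice after allowing for layer (52.8%, against 21.4% of all genes). By type these were 8 of 10 alpha, both alpha C, 9 of 21 beta, 8 of 11 gamma A, 0 of 6 gamma B and 1 of 3 gamma C genes (Pcdhgc4). The test sets mice against each other with their 3 layers as repeats, so it speaks of these animals with their dissection and library preparation, which cannot be told apart. For the median member, 88.9% of the variance of log2 CPM left after layer means lay between GFP mice, beside 59.7% for the median gene. Among FOXP2 mice the shares were 58.6% for the median member and 50.8% for the median gene, and over the 6 mice 78.5% and 51.9%.

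All 28 were lowest in GFP mouse 1, as were 51 of the 53 members tested. Pcdha11 averaged 6.72 ± 0.88 CPM in GFP mouse 1, 17.4 ± 2.02 CPM in GFP mouse 2 and 11.1 ± 1.95 CPM in GFP mouse 3 (SD over 3 layers), with no overlap between the mice (adjusted p = 0.000701). Pcdha5 averaged 8.92 ± 1.21, 21.4 ± 4.73 and 16.9 ± 3.16 CPM in GFP mice 1, 2 and 3 (adjusted p = 0.00101). Pcdhac2 averaged 39.3 ± 4.14, 75.3 ± 13.4 and 80.8 ± 11.2 CPM in GFP mice 1, 2 and 3 (adjusted p = 0.00101), and Pcdhgc4 29.6 ± 5.11, 56.6 ± 3.37 and 51.4 ± 1.81 CPM (adjusted p = 0.00242). For these genes the highest mouse had at least 1.91 times the lowest, whereas Pcdhgc3 averaged 73.3, 65.1 and 77.3 CPM in GFP mice 1, 2 and 3. Pcdha9, Pcdha7, Pcdha6, Pcdhb21, Pcdhac1, Pcdha3 and Pcdhb2 were the others among the 10 called members of largest ratio, with ratios of the highest to the lowest mouse of 2.01 to 2.4. Without GFP mouse 1 the calls of Pcdhac2, Pcdhac1, Pcdha6, Pcdha7, Pcdhb2 and Pcdhb21 were lost (adjusted p of 0.125 to 0.76), and without GFP mouse 3 those of Pcdha9, Pcdha6, Pcdhb2 and Pcdha3 (0.0524 to 0.109). Without GFP mouse 1 the count was 13 of 53 (24.5%, against 11.6% of all genes), without GFP mouse 2 it was 19 (11.7% of all genes) and without GFP mouse 3 it was 10 (5.74% of all genes).

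GFP mouse 1 also stood apart in makeup. Its summed pan-neuronal markers were at 6229, 9133 and 8287 CPM in L5-6, L4 and L2-3, and each value was below those of GFP mice 2 and 3 in the same layer, which lay between 9042 and 11010 CPM. In its L5-6 library astrocyte markers were at 5291 CPM and oligodendrocyte lineage markers at 4535 CPM, the highest of the GFP mice. The alternate alpha genes took 10.9% to 12.8% of the protocadherin reads in its libraries, against 14.2% to 17.5% in GFP mice 2 and 3. The part of this makeup in its lower protocadherin counts was not tested.

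GFP mice 2 and 3 differed from each other in a pattern that changed from isoform to isoform. Of the 13 members called between them, 4 were higher and 9 lower in GFP mouse 3. Higher were Pcdha3 (0.54 ± 0.10), Pcdha9 (0.51 ± 0.10), Pcdhga3 (0.50 ± 0.09) and Pcdhgc3 (0.27 ± 0.06 on the log2 scale). Lower were Pcdha11 (-0.63 ± 0.09), Pcdhb8 (-0.63 ± 0.13), Pcdhb13, Pcdhga12, Pcdhga8, Pcdhga6, Pcdhga11, Pcdhga7 and Pcdha5 (-0.31 ± 0.08), so that neighbours within 1 cluster went opposite ways in the same pair of mice. Of these 13, 10 were among the 28 called over the 3 GFP mice.

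Pcdha9, an alpha isoform, is given for each of the 6 mice. It was at 6.45, 7.51 and 6.07 CPM in L5-6, L4 and L2-3 of huFOXP2 mouse 1, and at 15.6, 22.0 and 15.5 CPM in the same layers of huFOXP2 mouse 2. The moFoxp2 mouse had 10.3, 13.5 and 9.76 CPM. Each layer of huFOXP2 mouse 1 was thus below the same layer of every other mouse, although both huFOXP2 mice received the same construct, and in the FOXP2 mice alone Pcdha9 differed between mice with an adjusted p of 0.000131. In GFP mice its layer means were 8.40, 14.3 and 20.2 CPM. Pcdha3, a few isoforms upstream, ran the other way in the huFOXP2 mice, averaging 18.3 CPM in mouse 1 and 11.4 CPM in mouse 2 (adjusted p = 0.00649 among FOXP2 mice). Over the 3 FOXP2 mice, 8 of 53 members differed between mice (15.1%, against 9.37% of all genes), namely Pcdha9, Pcdha3, Pcdhga3, Pcdha1, Pcdhb11, Pcdhga9, Pcdhb8 and Pcdhb10, and 6 of the 8 were also among the 28 called in GFP mice.

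**Figure D5:**
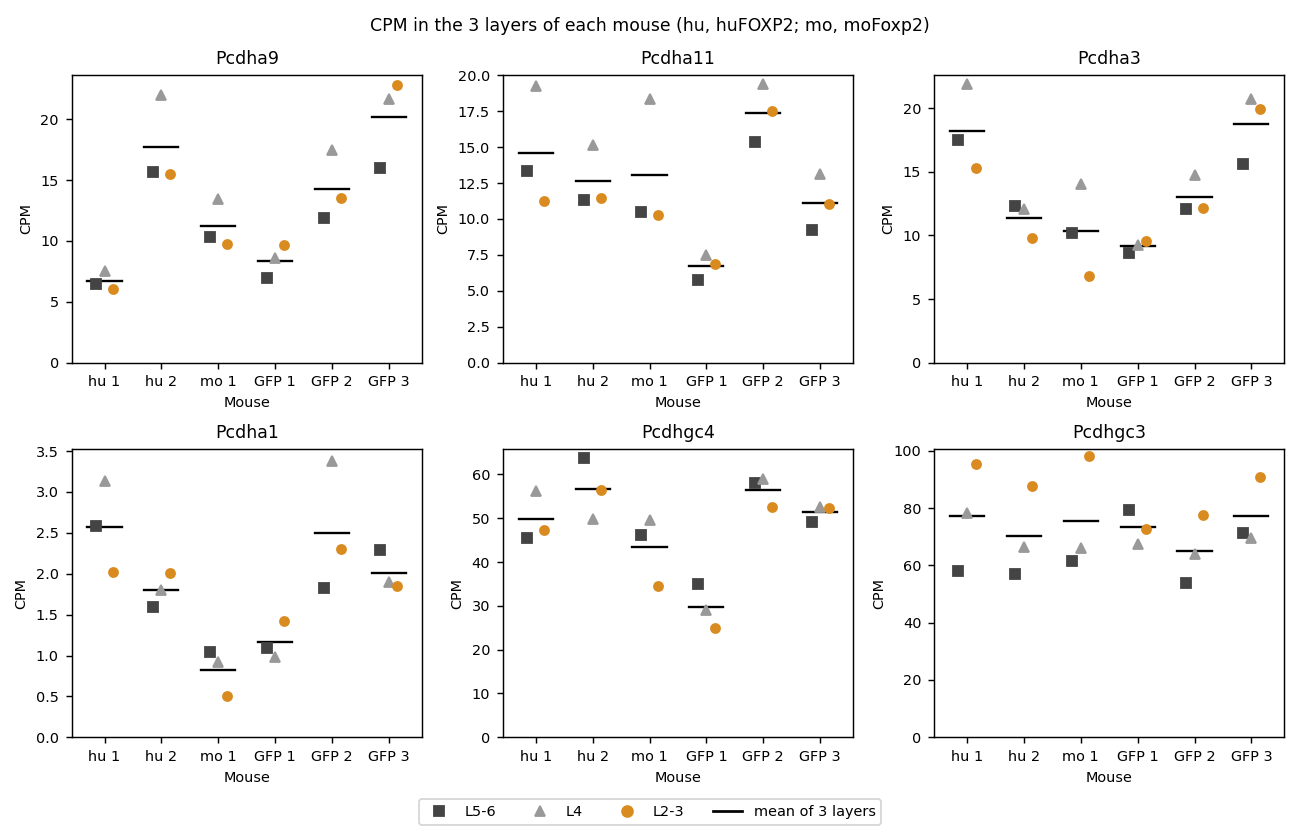
CPM of 6 members in huFOXP2 mice 1 and 2 (hu), the moFoxp2 mouse (mo) and GFP mice 1 to 3; symbols are layers and bars means of 3 layers. Pcdha9 and Pcdha3 differ between mice of the same construct in each layer, while Pcdhgc3 has mouse means within 65.1 to 77.3 CPM.

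Regulators of the clusters were followed in a list of 22 genes for CTCF, cohesin and its loaders and releasers, DNA methylation, and silencing factors. None of the 22 was called by edgeR's test between FOXP2 and GFP mice in any layer or over the mouse sums. At an unadjusted p under 0.05 there were 2 in L2-3 and 0 in L4, in L5-6 and over the sums, and DESeq2 called 1 in L2-3, Rest, and 0 elsewhere. Between layers 5 of them (22.7%) were called in L5-6 against L2-3, 6 (27.3%) in L5-6 against L4 and 7 (31.8%) in L4 against L2-3, each a smaller share than the 37.9%, 35.1% and 36.5% of all genes. Between GFP mice 3 of the 22 were called (13.6%, beside 21.4% of all genes). Dnmt3a, a de novo DNA methyltransferase, was higher in L5-6 than in L2-3 (0.31 ± 0.05) and in L4 than in L2-3 (0.18 ± 0.05). Tet1, which oxidises methylated cytosine, was higher in L5-6 than in L2-3 (0.32 ± 0.07) and than in L4 (0.25 ± 0.07). Wiz, a zinc finger protein found with CTCF and cohesin, was lower in L5-6 than in L2-3 (-0.19 ± 0.05) and than in L4 (-0.22 ± 0.05 on the log2 scale). Rest, a repressor of neuronal genes in other cells, was lower in L4 than in L2-3 (-1.38 ± 0.23) and higher in L5-6 than in L4 (0.85 ± 0.23). Ctcf, Rad21, Smc1a, Smc3 and Nipbl, the core of the looping machinery, passed in none of the layer contrasts.

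Of 22 genes for signalling and trafficking partners of protocadherins, 21 passed the filter and 0 were called by edgeR's test between FOXP2 and GFP mice in any layer or over the sums. At an unadjusted p under 0.05 there were 7 in L2-3, 1 in L4, 1 in L5-6 and 0 over the sums, and DESeq2 called 2 in L2-3, Wasf2 and Ptk2b, and 0 elsewhere. In L5-6 against L2-3, 4 were higher and 5 lower, in L5-6 against L4, 2 higher and 5 lower, and in L4 against L2-3, 7 higher and 2 lower, which is 42.9%, 33.3% and 42.9% of the 21. Ret, a receptor kinase that binds protocadherins in neurons, was lower in L5-6 than in L2-3 (-0.88 ± 0.09) and than in L4 (-0.91 ± 0.09). Prkca, a kinase of the pathway by which gamma protocadherins act on dendrites, was lower in L5-6 than in L2-3 (-0.68 ± 0.11) and than in L4 (-0.83 ± 0.11 on the log2 scale). Nlgn1, a neuroligin that gamma protocadherins bind, was higher in L4 than in L2-3 (0.64 ± 0.12). Wasf1, of the actin-regulating WAVE complex that binds many protocadherin tails, was lower in L5-6 than in L2-3 (-0.36 ± 0.09) and than in L4 (-0.47 ± 0.09), while Wasf2 of the same complex was lower in L4 than in L2-3 (-0.93 ± 0.17) and higher in L5-6 than in L4 (0.57 ± 0.17). Between GFP mice 7 of the 21 differed (33.3%, beside 21.4% of all genes), among them Nlgn1, Abi2 and Nckap1.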

How the data were processed

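The deposited table holds whole-number read counts per gene for 18 libraries, which the authors made with STAR, HTSeq and the mm10 build, per the submitters' processing notes; no source used here gives the versions, the strand setting or the treatment of ambiguous reads. Counts were tested with edgeR 4.0.16 in R 4.3.3 (quasi-likelihood test, TMM scaling, filterByExpr with a minimum count of 10 and total of 15), with Benjamini-Hochberg adjustment over all genes tested and a threshold of 0.05. Layer contrasts and comparisons of the FOXP2 difference between layers used the mouse as a block, since libraries of 1 mouse deviated together (correlation 0.262 to 0.673 over 18 pairs). The replicates of a group are mice, so p-values of FOXP2 against GFP measure the spread between these mice. With the mouse as a block, p-values measure how far a layer difference varies from mouse to mouse. For differences between mice the repeats are the 3 layers of each mouse, so those p-values measure the spread within mice. DESeq2 1.42.0, RLE scaling, no filter, single mice left out and other blocks were alternatives. For differences between mice, leaving out each GFP mouse and using FOXP2 mice in their place were chosen after seeing the data. Exonic bases came from GENCODE M21, where 53229 of 54446 identifiers matched with their version. Named were the C-types, the 3 highest and 2 lowest members per group, and called members (at most 10 by fold per direction) or the 3 of smallest p. Pcdhga11, Pcdhb6 per kilobase, and members listed between GFP mice 2 and 3 were named after their values were seen. Members and gene lists were chosen with earlier results of these data known. The fits were tested on simulated data.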

Additional observations from a re-analysis of the deposited data

Results flagged for a closer look

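For 3 members the FOXP2 difference was not the same in L5-6 as in L2-3 by the test of the difference itself. The change in the log2 difference, L5-6 minus L2-3, was 0.71 ± 0.14 for Pcdhac2 (SE, adjusted p = 0.0112 in edgeR's quasi-likelihood test, with a range of 1.08e-05 to 0.365 over the alternatives). It was 0.54 ± 0.15 for Pcdhb3 (adjusted p = 0.0309) and 0.54 ± 0.16 for Pcdha5 (adjusted p = 0.0394). Pcdhb3 and Pcdha5 passed in few of the alternatives, with adjusted p of 0.0368 to 0.241 and 0.0358 to 0.556. Within layers, the estimates for Pcdhac2 were 0.24 in L5-6 and -0.44 in L2-3, and neither passed the threshold.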

How the results depend on the processing

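No named member changed direction under any alternative, the test among GFP mice giving none. Members were named on these same mice, so kept directions follow largely from how they were picked and are no separate support. Among comparisons of a named member with an alternative 617 kept their side of the threshold, 125 lost it and 2 gained it. The 617 include members named for a small p without being called, which kept their side by staying uncalled. All 125 losses were among called members, so the share of calls lost is larger than the 3 counts together show. Without the replicate block for the mouse, the called members numbered 1 in L4 against L2-3, 8 in L5-6 against L2-3, 7 in L5-6 against L4 and 0 for the FOXP2 difference of L5-6 minus L2-3. Over all genes, the calls without that block numbered 4007, 4321 and 3575 of 15295 and 0 of 15952, in the same order. With 1 mouse left out the counts of members were 5 to 14, 9 to 22, 16 to 22 and 0 to 5 in that order. With GFP mice alone they were 0 in L4 against L2-3 and 10 in L5-6 against L4, where FOXP2 mice alone gave 12. FOXP2 mice alone also gave 12 in L4 against L2-3, from as many mice as the GFP fit. Over all genes that contrast gave 6617 calls among 15396 in FOXP2 mice alone, and 952 among 15698 in GFP mice alone. The cause was not tested. Without the filter on low counts the FOXP2 difference of L4 minus L2-3 gave 2 members, beside 1326 of 32664 genes. Differences among GFP mice numbered 10 to 19 with 1 mouse left out, and 8 among FOXP2 mice instead. Per kb of whole exonic length the C-types stood at 0.913 (Pcdhac1), 11.1 (Pcdhac2), 13.3 (Pcdhgc3), 8.56 (Pcdhgc4) and 2.15 CPM (Pcdhgc5), since the length divided by is larger. FOXP2 and GFP mice gave 0 called members in each alternative run. Same-numbered huFOXP2 and GFP mice did not deviate together (correlation -0.283 to 0.179 over 6 pairs), and the replicate block over numbers 1 and 2 also gave 0 members in each layer and over mouse sums. Members with few counts, and members with few bases of their own, are limited by depth.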
